A study of Mus musculus with 8 samples.

Results

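Total RNA of hippocampi dissected on embryonic day 15.5 (E15.5) was compared between IUGR and sham mouse embryos, with 4 libraries in each group, for 10 genes of the Notch pathway. They were chosen by symbol from the 16397 genes of the count table, and all 10 were found there: the ligand genes Dll1, Dll3 and Jag1, the receptor genes Notch1, Notch2 and Notch3, the transcription factor gene Rbpj and the target genes Hes1, Hes5 and Hey1. All embryos were C57Bl/6J. Dams of the IUGR group carried a micro-osmotic pump releasing U-46619, a thromboxane analog that makes them hypertensive, from E12.5 on, and dams of the sham group carried a pump with the vehicle, dilute ethanol, from the same day. Embryos of both sexes were used, and the sex of each library is not given in the sources used here. The IUGR libraries are named T1-1, T1-3, T1-4 and T1-5, and the sham libraries S1-4, S1-6, S3-1 and S3-4. What the prefixes T1, S1 and S3 stand for, and how many dams the embryos came from, are not given either. All 4 IUGR libraries share 1 prefix, so that if prefixes mark dams, treatment and dam cannot be told apart, and p values measure only the spread between these libraries.

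Notch receptors are membrane proteins that are activated by Delta-like and Jagged ligands on a neighboring cell. Activation cuts the receptor within the membrane, and its intracellular part enters the nucleus and joins Rbpj, a DNA-binding protein that represses its targets in the absence of Notch activity and activates them in its presence. In the embryonic forebrain the best known targets, Hes1 and Hes5, encode repressors of proneural genes that keep radial glia, the neural stem cells, from differentiating, whereas newly committed progenitors present Delta-like ligands to their neighbors. The comparison asks whether the genes of this exchange were expressed at other levels in IUGR than in sham hippocampi.

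None of the 10 genes passed the threshold for differential expression, and for 9 of them the 95% interval of the difference lay within a 2-fold change in either direction. Of the 7964 tested genes counted at least as highly as the least counted of the 10, 93.6% had such an interval, so that this share is near that of other genes. The median size of the log2 fold change, regardless of sign, was 0.18 in the 10 genes and 0.09 in those 7964. The median standard error (SE) was 0.23 in the 10 genes and 0.19 over all genes tested, and that of the 7964 is not given here. The 10 genes also varied together over the libraries, so their values are not independent. Among the 10, Notch2 was the one outside that span, with the largest difference of the 10 and an interval that reached beyond a 2-fold fall. A call in edgeR's quasi-likelihood test required both an adjusted p no higher than 0.05 and a change of 1 or more, up or down, on the log2 scale. This call was made for 0 of the 10 genes, and for 1.46% of the 13707 protein-coding genes tested (1.36% lower and 0.102% higher in IUGR). The split of all calls varied with the fit, from 14 higher and 186 lower in edgeR to 84 and 341 in DESeq2, and to 99 and 140 in edgeR without T1-1 and T1-4. DESeq2's Wald test and limma-voom also called 0 of the 10, against 3.1% and 2.39% of all genes. At an unadjusted p under 0.05 edgeR found 1 of the 10, Notch2, and 11.1% of all genes (6.62% lower in IUGR, as Notch2 was), and DESeq2 found 1 and limma-voom 0 of the 10. The expression of the groups overlapped for all 10 genes, while in 7.14% of all genes it did not. Expression is given as CPM (counts per 1000000 counts of the tested genes, after TMM scaling), and log2 fold changes above 0 stand for more expression in IUGR. The 10 genes had between 228 and 6606 counts per library.

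The 4 IUGR libraries had total counts from 12919546 to 16672463, and the 4 sham libraries from 11212632 to 15405748. Markers of the hippocampal and neighboring pallium were present in every library, with summed levels of 983 to 1155 CPM in IUGR libraries and 852 to 1679 in sham libraries over 8 genes. Of these 8, 0 were called and 1 had an unadjusted p under 0.05, and all 8 had a negative log2 fold change, with a median of −0.37. Summed levels of 10 choroid plexus markers were 42.1 to 1139 CPM in IUGR libraries and 5228 to 11737 in sham libraries, with T1-1 and T1-4 lowest at 62.9 and 42.1 CPM. No choroid plexus marker was at 0 counts in any library, and the lowest level of Ttr was 10.2 CPM. Summed levels of 8 markers of the cortical hem were 21.0 to 73.9 CPM in IUGR libraries and 143 to 307 in sham libraries. Among 6 meningeal markers, T1-3 stood apart with a summed level of 2670 CPM, against 67.7 to 748 CPM in the other libraries. Markers of the ganglionic eminence were present in all libraries too (397 to 973 CPM summed over 6 genes). In whole tissue, fewer cells of a type and less RNA per cell cannot be told apart, and the part of these cell types in the levels below was not tested.

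**Figure D1:**
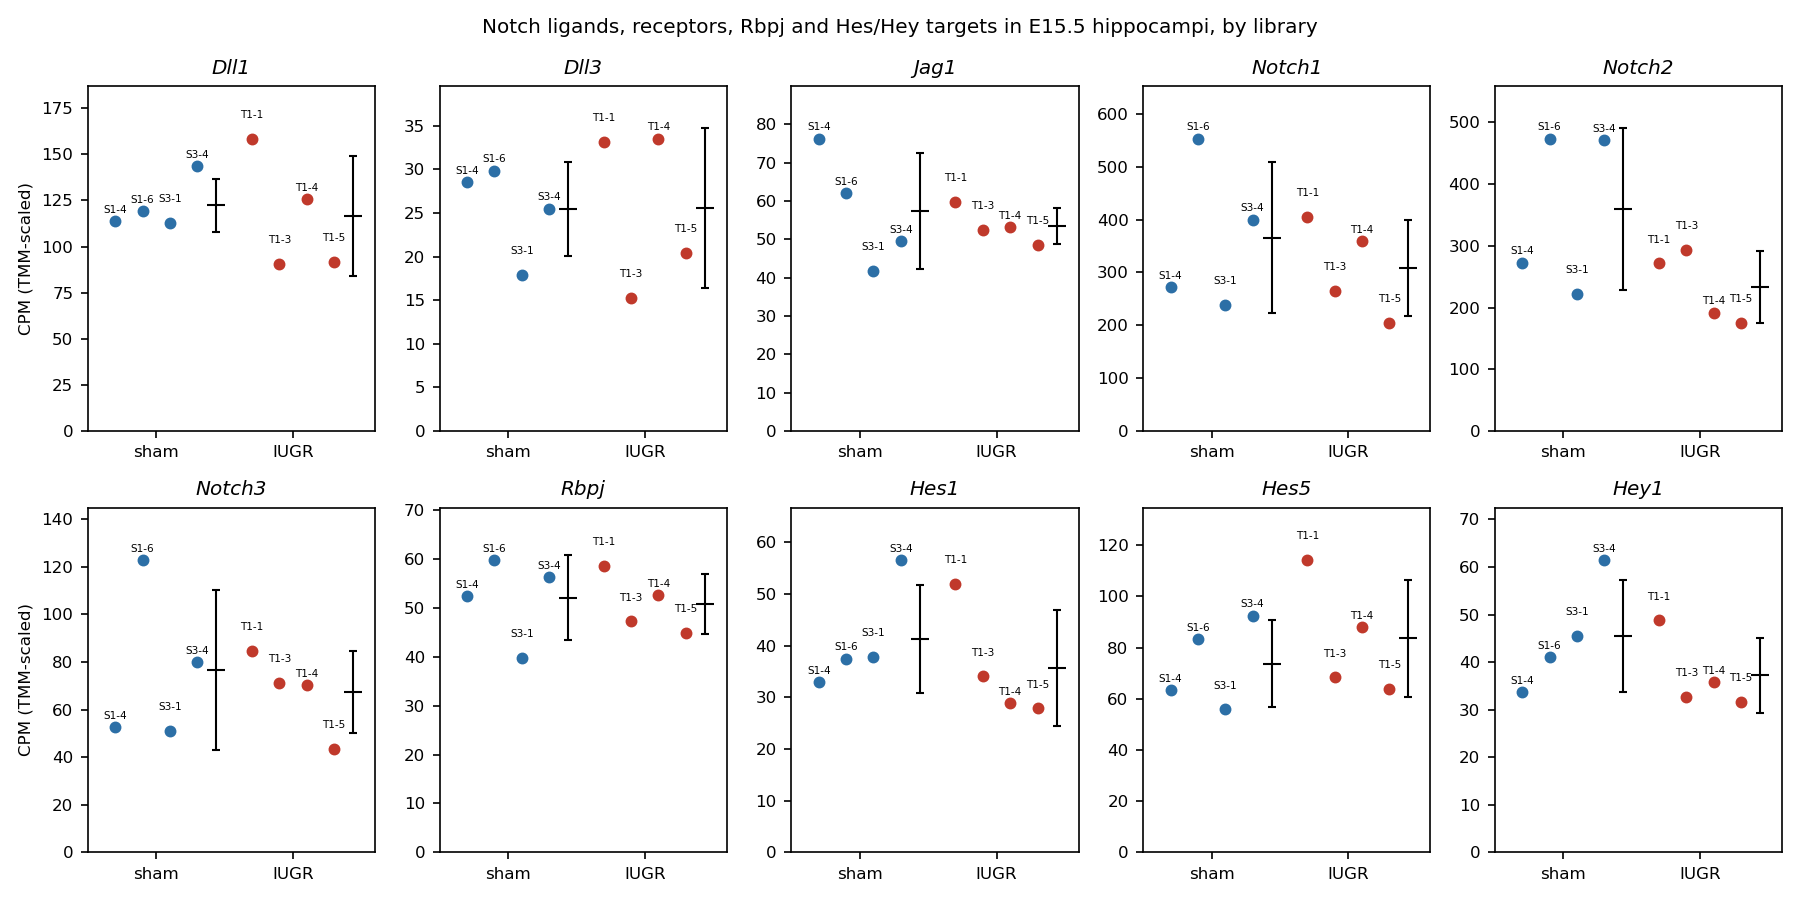
Expression in CPM (vertical axes, each from 0) of the 10 Notch pathway genes in 4 sham (blue) and 4 IUGR (red) libraries, with library names beside the points and bars for the mean ± SD of the group. Sham and IUGR points overlap in every panel. Notch2 shows the widest distance between the group means, 360 CPM in sham and 233 CPM in IUGR.

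The ligand genes differed little between the groups. Dll1 (chromosome 17, 15367354 to 15376872), a Delta-like ligand of committed progenitors, was expressed at 114, 119, 113 and 144 CPM in S1-4, S1-6, S3-1 and S3-4. In T1-1, T1-3, T1-4 and T1-5 it was at 159, 90.5, 126 and 91.6 CPM, so that the IUGR libraries lay on both sides of the sham range. Its log2 fold change was −0.07 (SE 0.19, 95% interval −0.49 to 0.35, adjusted p = 1.0 in edgeR). Dll3 (chromosome 7, 28293553 to 28302238), a divergent ligand known to act inside the cell and against Notch signaling, was the least counted of the 10 genes. Its levels were 28.6, 29.9, 17.9 and 25.5 CPM in the sham libraries, in the same order, and 33.2, 15.3, 33.5 and 20.5 CPM in the IUGR libraries. The highest and the lowest of the 8 values both belonged to IUGR, and the means, 25.6 ± 9.19 and 25.5 ± 5.37 CPM (SD, n = 4 each), were almost equal. Jag1 (chromosome 2, 137081456 to 137116644), the Jagged ligand, was expressed at 76.3, 62.0, 41.7 and 49.5 CPM in sham and at 59.7, 52.4, 53.1 and 48.4 CPM in IUGR libraries. All IUGR values of Jag1 lay inside the sham range, and both sham libraries with the prefix S1 exceeded both with the prefix S3. The log2 fold change of Jag1 was −0.37 against the S1 libraries alone and 0.25 against the S3 libraries alone, with edgeR adjusted p values of 0.646 and 0.790 (unadjusted 0.0481 and 0.197).

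The receptor genes showed the widest spread between libraries. Notch1 (chromosome 2, 26457903 to 26516663), the main receptor of radial glia, was expressed at 272, 553, 238 and 400 CPM in S1-4, S1-6, S3-1 and S3-4. The IUGR levels in T1-1, T1-3, T1-4 and T1-5 were 406, 265, 359 and 205 CPM. S1-6 held the highest value and T1-5 the lowest, 2.70-fold apart, and the log2 fold change between groups was −0.24 (SE 0.29). Without S1-6 it became 0.06. Notch3 (chromosome 17, 32120820 to 32166852), a receptor that is also a marker of mural cells of the vessels, had the same highest and lowest libraries. Its levels were 52.5, 123, 50.9 and 80.0 CPM in sham and 84.6, 71.2, 70.4 and 43.4 CPM in IUGR libraries. The log2 fold change of Notch3 was −0.18 (SE 0.30), and without S1-6 it was 0.17. Summed levels of 6 markers of pericytes and mural cells were 252 to 446 CPM in IUGR libraries and 205 to 268 in sham libraries, with 0 of the 6 called, 6 of 6 log2 fold changes positive and a median of 0.40.

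Notch2 (chromosome 3, 98013527 to 98150361), a receptor gene of radial glia as well as of other cells of the forebrain, was expressed at 273, 474, 223 and 471 CPM in the sham libraries S1-4, S1-6, S3-1 and S3-4. In the IUGR libraries T1-1, T1-3, T1-4 and T1-5 it was at 272, 293, 192 and 175 CPM. The IUGR values thus overlapped the lower sham pair, and S1-6 and S3-4 stood above all others. These are also the libraries with the highest summed markers of the hippocampal pallium, 1621 and 1679 CPM against 852 to 1227 CPM in the other 6, and the part of this in the level of Notch2 was not tested. The mean was 233 ± 58.2 CPM in IUGR and 360 ± 131 CPM in sham (SD, n = 4 each), or −0.63 as log2 fold change (SE 0.27, 95% interval −1.23 to −0.03). Its unadjusted p was 0.0405 and its adjusted p 0.406 in edgeR, and the exact two-sided permutation test on log2 CPM gave p = 0.143, where 0.0286 is the smallest p possible with 4 against 4. For the other 9 genes that test gave p values from 0.314 to 0.914. The log2 fold change of Notch2 was negative in each fit that left out a library, from −0.80 without S3-1 to −0.44 without S1-6, with adjusted p values between 0.208 and 0.849. Of the same 7964 genes, 3.3% had a log2 fold change as far from 0 as that of Notch2. Notch2 was picked for this count because its difference was larger than those of the other 9 genes. The share therefore does not measure how unusual Notch2 is.

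**Figure D2:**
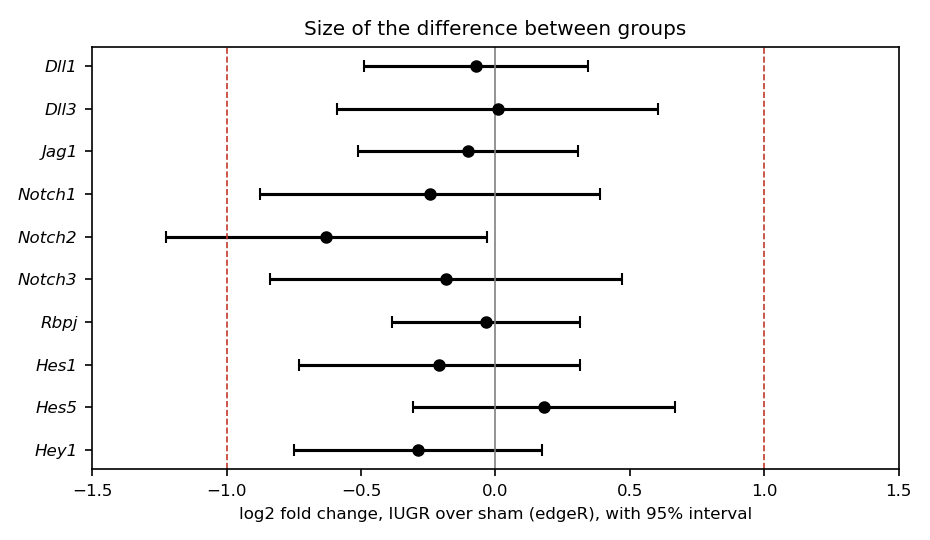
Log2 fold change of IUGR over sham for each gene (points) with its 95% interval from edgeR's test (bars), where dashed lines mark a 2-fold change. The interval of Notch2 reaches −1.23 and leaves out 0, and the other 9 intervals include 0 and stay within the dashed lines.

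Rbpj (chromosome 5, 53466152 to 53657362), which encodes the nuclear partner of every Notch receptor, was the steadiest of the 10. It was expressed at 52.3, 59.7, 39.8 and 56.3 CPM in S1-4, S1-6, S3-1 and S3-4 and at 58.6, 47.2, 52.6 and 44.8 CPM in T1-1, T1-3, T1-4 and T1-5. All IUGR values lay inside the sham range. Between groups it differed by −0.03 on the log2 scale (SE 0.16, 95% interval −0.38 to 0.31), the narrowest interval of the 10 genes, and the highest library exceeded the lowest by 1.5-fold.

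The target genes are commonly read as measures of Notch activity, and none of the 3 was called, with log2 fold changes below 0 for Hes1 and Hey1 and above 0 for Hes5. Hes1 (chromosome 16, 30064384 to 30067796), a target that other pathways can switch on too, was expressed at 32.9, 37.5, 37.9 and 56.5 CPM in S1-4, S1-6, S3-1 and S3-4. Its IUGR levels were 51.9, 34.1, 28.8 and 27.8 CPM in T1-1, T1-3, T1-4 and T1-5, with 2 of the 4 below every sham value. This was a log2 fold change of −0.21 (SE 0.24, 95% interval −0.73 to 0.31). Hey1 (chromosome 3, 8663359 to 8667256), a related repressor that endothelial cells express as well, was at 33.6, 41.0, 45.6 and 61.4 CPM in sham and 48.8, 32.8, 35.7 and 31.7 CPM in IUGR libraries. As with Hes1, S3-4 held the highest and T1-5 the lowest value. Hey1 had a log2 fold change of −0.29 (SE 0.21, 95% interval −0.75 to 0.17, adjusted p = 0.838 in edgeR), and it was −0.50 against the S3 libraries alone and −0.0040 against the S1 libraries alone. Summed levels of 8 endothelial markers were 215 to 372 CPM in IUGR libraries and 202 to 298 in sham libraries, with 0 of the 8 called. Of the 8, 7 had a positive log2 fold change, 3 of them at an unadjusted p under 0.05, and the median was 0.54. The part of endothelial cells in the level of Hey1 was not tested.

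Hes5 (chromosome 4, 154960923 to 154962371), a target closely tied to Notch activity in radial glia, was expressed at 63.3, 83.2, 55.9 and 92.4 CPM in S1-4, S1-6, S3-1 and S3-4. In T1-1, T1-3, T1-4 and T1-5 it was at 114, 68.3, 88.0 and 63.7 CPM. T1-1 exceeded all sham libraries, and the other 3 IUGR libraries lay inside the sham range. The log2 fold change was 0.18 (SE 0.22, 95% interval −0.31 to 0.67, adjusted p = 1.0 in edgeR), the only one of the 10 above 0 apart from that of Dll3, 0.01. Without T1-1 it was 0.03, and without both T1-1 and T1-4, the libraries with the lowest choroid plexus markers, it was −0.16. In that last fit, which was added after the data were seen, 0 of the 10 genes were called, beside 239 of the 13707. All 10 log2 fold changes were negative, and the median over all genes tested was −0.04. The 10 genes varied together over the libraries, so these signs are not independent. In this fit Dll1, at −0.43, was the 1 gene of the 10 with an unadjusted p under 0.05 (edgeR adjusted p = 0.275), beside 1916 of the 13707. Hes5, with Hes1 and Notch1, belongs to radial glia, and of 10 radial glial markers 0 were called, 4 had a positive and 6 a negative log2 fold change, with a median of −0.11.

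The sites through which Rbpj acts have the core TGGGAA, which was searched on both strands, so that it also reads TTCCCA. In RefSeq's promoter windows of GRCm38.p6, which run from 250 bases before to 50 bases after each start of transcription, 8 of the 10 genes were matched, with 10 windows. Hes1 and Hey1 were not among them. The core occurred in 3 of these 10 windows, those of Hes5 and Rbpj, and in 25.6% of all 32851 windows. The 2 windows of Rbpj overlap and share 1 of these sites. The 250 bases before the starts of Hes5 and of the upstream start of Rbpj are shown because each holds the core 2 times, with the core in capitals, 5′ to 3′ on the plus strand, at chr4:154960673-154960922 for Hes5 and at chr5:53590096-53590345 for Rbpj.
Hes5: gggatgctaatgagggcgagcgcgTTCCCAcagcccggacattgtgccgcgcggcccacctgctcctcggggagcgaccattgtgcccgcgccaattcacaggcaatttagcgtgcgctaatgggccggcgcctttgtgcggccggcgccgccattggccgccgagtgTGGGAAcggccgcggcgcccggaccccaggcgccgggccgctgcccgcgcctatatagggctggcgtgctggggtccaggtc
Rbpj: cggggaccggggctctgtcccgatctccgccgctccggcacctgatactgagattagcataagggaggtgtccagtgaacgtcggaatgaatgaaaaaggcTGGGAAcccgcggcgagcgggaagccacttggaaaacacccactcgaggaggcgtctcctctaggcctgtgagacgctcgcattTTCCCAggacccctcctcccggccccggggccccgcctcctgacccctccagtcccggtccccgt
In the Hes5 window the cores begin 226 and 82 bases before the start of transcription, on opposite strands, and in the Rbpj window they begin 149 and 65 bases before it. Of other motifs searched on both strands, the N box CACNAG of Hes repressors occurred in 4 of the 10 windows (Dll1, Notch1, Notch2 and Notch3) and 42.5% of all windows. The E box CACGTG occurred in 0 of the 10 windows and in 7.15% of all. The related site CACGCG occurred in 3 (Dll1, Jag1 and Notch2) and 9.27%. A match is a stretch of letters only, and these data hold no measure of binding.

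Compared per kb of exon, the 10 genes spanned a wide range of levels. Hes5 was the highest in both groups, with a mean of 54.1 CPM per kb in sham (41.0 to 67.8) and 61.3 CPM per kb in IUGR (46.8 to 83.7), and it exceeded the gene that follows in all 8 libraries. In sham hippocampi Notch2 (mean 33.4, range 20.7 to 43.95), Dll1 (29.0, 26.8 to 34.0), Notch1 (25.7, 16.8 to 38.9) and Hes1 (20.2, 16.2 to 27.8 CPM per kb) followed, and the sham ranges of neighbors in this order overlapped. Notch2 exceeded Dll1 in 3 of the 8 libraries only, and by its mean of 21.6 CPM per kb it was the fourth in IUGR hippocampi. Hey1 was at a mean of 13.9 CPM per kb in sham. Jag1, Notch3 and Dll3 lay close together, at 9.85, 9.46 and 8.93 CPM per kb, and Notch3 exceeded Dll3 in 4 of the 8 libraries. Rbpj was the lowest at a mean of 4.08 CPM per kb, and its sham range did not overlap that of Dll3. Exon lengths join all annotated transcripts of a gene, 12.75 kb for Rbpj and 1.363 kb for Hes5, so levels of genes with long, rarely used exons are underestimated.

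**Figure D3:**
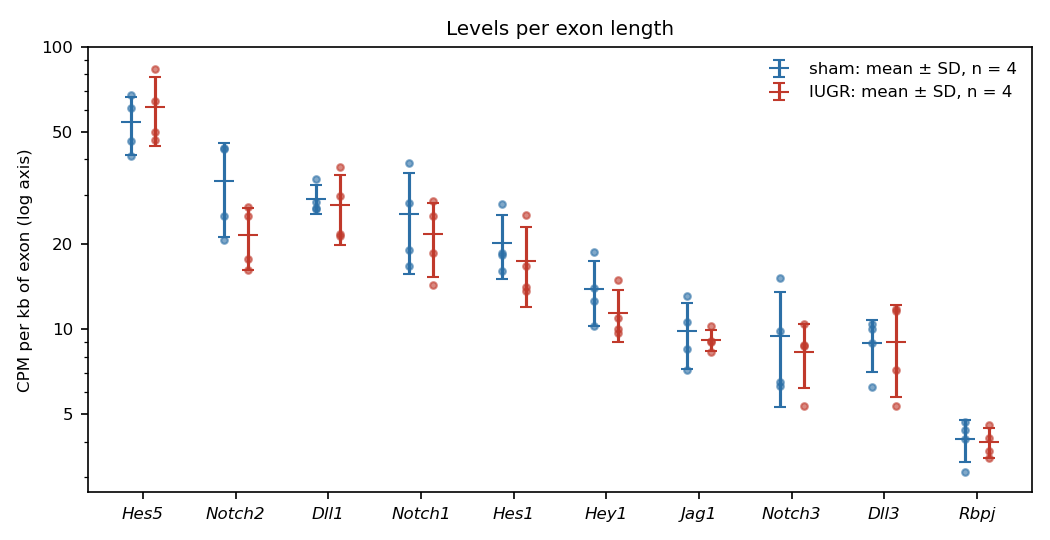
Levels of the 10 genes in CPM per kb of exon (log axis), ordered by the sham mean, with points for libraries and bars for the mean ± SD of 4 sham (blue) and 4 IUGR (red) libraries. Hes5 stands at the top with 54.1 in sham and Rbpj at the bottom with 4.08, and neighbors other than Dll3 and Rbpj overlap in sham.

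The libraries varied together across the 10 genes in ways that the groups do not describe. S1-6 was the highest library for 4 genes (Notch1, Notch2, Notch3 and Rbpj) and the lowest for 0. T1-5 was the lowest library for 5 genes (the 3 receptor genes, Hes1 and Hey1), S3-1 for 3 and T1-3 for 2. After the group means were removed from log2 CPM, the correlation over the 8 libraries was positive in 43 of the 45 pairs of genes, with a median Pearson r of 0.64. All of these values share the same 8 libraries, their total counts and their scaling. The closest pairs were Notch1 with Notch3 (r = 0.95, Spearman's rho 0.93), Hes1 with Hey1 (0.92 and 0.79) and Dll1 with Hes5 (0.90 and 0.88). The 2 negative pairs were those of Jag1 with Hey1 (r = −0.35) and with Hes1 (−0.08), and the other pairs of Jag1 were positive, up to 0.64 with Rbpj. Over all tested genes, without removal of group means, the patterns most like that of Hes5 were those of Lsm2, Vcp and Eno1 (r of 0.98, 0.97 and 0.97). For Hes1 they were those of Tex261, Snx12 and Whamm (each with r = 0.97). For Notch1 they were those of Fbrsl1, Plxnb1 and Gli3 (r of 0.97 each). In each case these are the 3 highest of all 13707 tested genes over only 8 libraries, and what the likeness stands for was not tested.

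**Figure D4:**
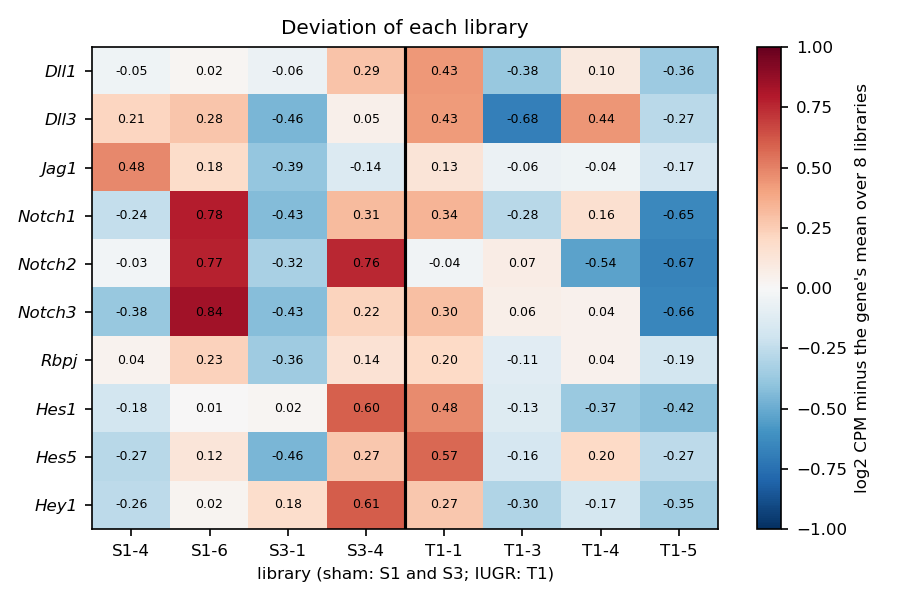
Log2 CPM of each gene (rows) in each library (columns) minus the gene's mean over the 8 libraries, with sham libraries left and IUGR libraries right of the line. S1-6 is red for the receptor genes, 0.84 for Notch3, and T1-5 is blue for all 10 genes, down to −0.67 for Notch2.

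The rest of the pathway was read from lists of 58 further genes, of which 56 were tested. Of these, 0 were called higher and 1 was called lower in IUGR hippocampi, which is 1.79% a share near the 1.46% of all genes. Of the 56, 23 had a positive and 33 a negative log2 fold change, and the median was −0.06, beside −0.02 over all genes tested. The CPM of the groups did not overlap for 3 of the 56 (5.36%, against 7.14% of all genes), namely Aph1c, Adam17 and Dner. Adam17, Dner, Aph1b, Nrarp, Hey2 and Neurog1 are named after their values were seen. Aph1c (chromosome 9), a subunit of gamma-secretase, the protease that cuts the receptor within the membrane, was expressed at 2.02, 3.38, 1.77 and 2.97 CPM in T1-1, T1-3, T1-4 and T1-5. In S1-4, S1-6, S3-1 and S3-4 it was at 9.98, 7.70, 6.67 and 5.49 CPM. Its log2 fold change between the groups was −1.54 (SE 0.30, adjusted p = 0.0319 in edgeR), and every IUGR library lay below every sham library. The summed choroid plexus markers have the same order among the IUGR libraries, at 62.9, 1139, 42.1 and 759 CPM in T1-1, T1-3, T1-4 and T1-5, and S1-4 and S3-4 are the highest and the lowest sham library for both. The part of the choroid plexus in the level of Aph1c was not tested. With 1 library left out at a time it stayed called in 2 of 8 fits, those without T1-3 or T1-5, with edgeR adjusted p values from 0.0308 to 0.107, while its log2 fold change stayed between −1.69 and −1.35 in all 8. Without both T1-1 and T1-4 its log2 fold change was −1.23, with an edgeR adjusted p of 0.101. Aph1c has a near-identical copy in the mouse, Aph1b, with which it can share reads, so its count is uncertain. Aph1b, with 63.9 to 94.5 CPM in IUGR libraries and 64.1 to 90.7 in sham libraries, had a log2 fold change of 0.01. Of the other gamma-secretase and sheddase genes, Adam17, which cuts the receptor outside the membrane, had a log2 fold change of −0.32 (SE 0.11, adjusted p = 0.238 in edgeR).

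The 5 tested ligand genes outside the 10 all had positive log2 fold changes, with a median of 0.92, and 0 were called. Dlk2, a Delta-like protein without the domain that activates Notch, had the largest, 1.09 (SE 0.38, adjusted p = 0.251 in edgeR), with 2.92 to 8.05 CPM in IUGR libraries and 1.39 to 3.14 in sham libraries. Dner, a Delta-like membrane protein of neurons, ranged from 109 to 160 CPM in IUGR libraries and from 49.0 to 91.8 in sham libraries, a log2 fold change of 0.93 (SE 0.22, adjusted p = 0.0712 in edgeR). Without S1-6 it was called higher, with a log2 fold change of 1.19 (edgeR adjusted p = 0.0274). Beside it, all 8 neuron markers had positive log2 fold changes (median 0.46, 0 called), with summed levels of 4869 to 5239 CPM in IUGR libraries and 3502 to 4446 in sham libraries. The part of neurons in the level of Dner was not tested. Notch4, the remaining receptor gene and one of endothelial cells, had a log2 fold change of 0.35 (SE 0.18) and was not called, beside the median of 0.54 for endothelial markers. Among 4 genes of ligand endocytosis, Neurl1a had the largest difference at 0.87 (SE 0.37), and among 5 glycosylation genes Lfng, a fringe enzyme that modifies the receptor, had −0.21 (SE 0.16).

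Among the 8 tested nuclear cofactors the largest difference was that of Kat2b, a histone acetyltransferase gene, at −0.36 on the log2 scale (SE 0.22). Of 11 corepressors, 0 were called, and the median log2 fold change was −0.04. Of the other 3 tested targets, Heyl, a target of mural cells, had a log2 fold change of 1.33 (SE 0.58, adjusted p = 0.416 in edgeR). T1-3 was at 17.1 CPM and the other IUGR libraries at 2.70 to 4.18 CPM, inside the sham range of 1.78 to 4.33 CPM. T1-3 had the highest summed markers of meninges (2670 CPM), of pericytes and mural cells (446 CPM) and of endothelium (372 CPM). It was also the highest for microglia and macrophages (125 CPM). The part of these cell types in the level of Heyl was not tested. Nrarp, a feedback inhibitor that Notch activity induces, had a log2 fold change of −0.17 (SE 0.18), and Hey2 one of −0.53 (SE 0.35). Of 9 antagonists, such as Numb and Hes6, 0 were called, and the largest difference was that of Dtx1 at 0.39 (SE 0.18). Of the proneural genes tested, which Hes proteins repress, 0 were called. Neurog1 had a log2 fold change of −0.04 (SE 0.58) and Neurog2 one of −0.26 (SE 0.43), with wider SEs than any of the 10 genes.

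**Figure D5:**
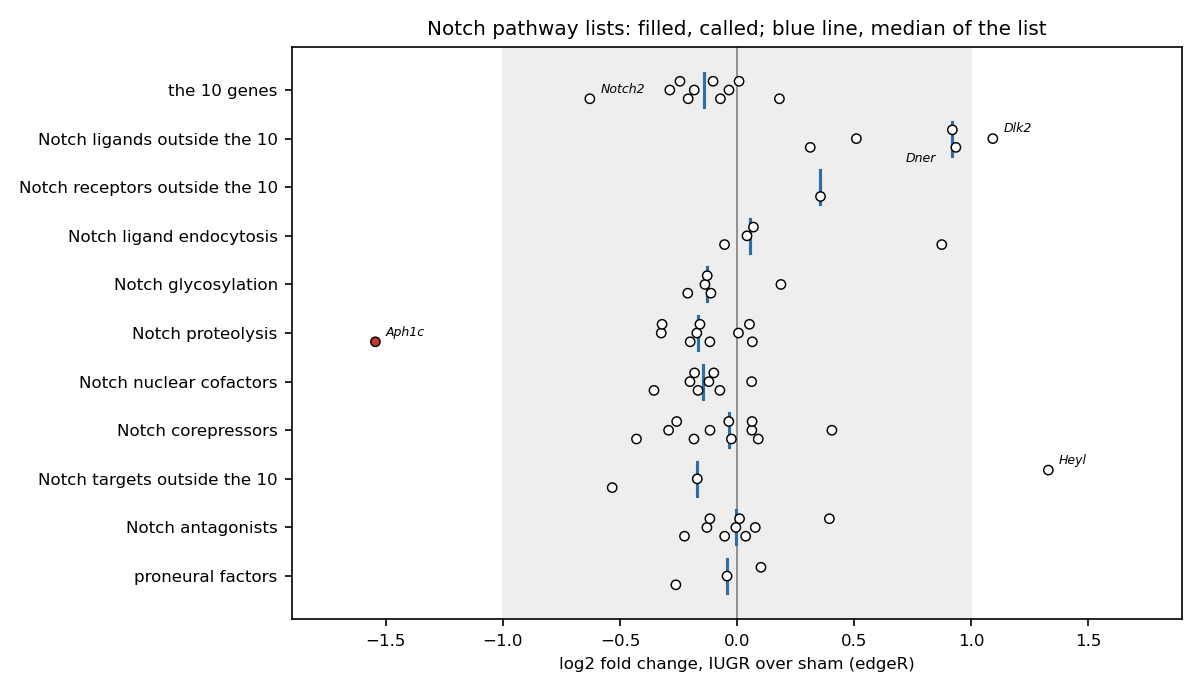
Log2 fold change of IUGR over sham (horizontal axis, edgeR) for the tested genes of each list (points), with blue lines for list medians, filled points for called genes and a grey band for less than a 2-fold change. Aph1c at −1.54 is the only filled point. Dlk2 at 1.09 and Heyl at 1.33 also lie outside the band without being called.

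Transcripts on the opposite strand overlap exons of Notch1, Notch3, Dll1 and Hes5 in the annotation, and whether the authors' counting used strand is not given in the sources used here. Of these, 2 were measured, with 4 to 24 counts per library for 0610009E02Rik, which overlaps Notch1, and 17 to 35 counts for A930024N18Rik, which overlaps Dll1. The levels of Gm13568 (Notch1), Gm17276 (Notch3) and Gm20421 (Hes5) were not analysed here, and reads of these transcripts and of the genes they overlap cannot be told apart if strand was not used. Gm42820, on the same strand as Notch2, overlaps its exons too and was not analysed here either, and strand would not separate these.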

How the data were processed

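Stranded total RNA libraries, depleted of ribosomal RNA, were sequenced as single reads. The authors aligned the reads to GRCm38 (mm10; Novoalign 2.8 is named in the submitters' processing notes) and deposited raw counts per gene, 1 column per library; the counting program and the annotation are not given in the sources used here. All 8 libraries were used, grouped by the treatment label. Within groups, the counts of each of the 12 pairs of libraries differed by more than sampling noise (21.3 to 61.4 units of chi-square per degree of freedom).

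Identifiers were matched to GENCODE M21 (273 of 16397 had no match). The tests took in 13707 protein-coding genes, those whose mean count was 10 or more but below 50000. The deposited counts went into edgeR 4.0.16 under R 4.3.3 (TMM, quasi-likelihood test, Benjamini-Hochberg adjustment over all genes tested), which was also tested on simulated data. SEs are those implied by the F statistic, and intervals use the test's degrees of freedom. Log2 CPM used a prior count of 2. DESeq2 1.42.0, limma 3.58.1, other scalings and filters, and left-out libraries were the alternatives. The genes and lists were chosen with earlier results of these data known. Named by rule beyond the 10 genes were, in each pathway list, every called gene and the gene with the largest difference, then summed levels of marker lists with their defining gene, and the 3 genes most correlated with Hes5, Hes1 and Notch1. Some genes that this rule names are not reported here.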

Additional observations from a re-analysis of the deposited data

Results flagged for a closer look

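Of 62 groups of 4 libraries examined for a library far from the rest (2 groups for each of 31 genes or marker sums), 1 was marked, and chance marks about 1 group in 20. In T1-3, Heyl was at 17.1 CPM, and the nearest IUGR library was at 4.18 CPM, so that this gap took up 0.897 of the range of the group.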

How the results depend on the processing

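Of the 10 genes, 0 were called under any alternative scaling, filter, test or choice of libraries, and 1 (Notch2) had an unadjusted p under 0.05 in the test as reported. With the sham libraries of prefix S1 alone there were 2 (Notch2 and Jag1), beside 1053 of all genes. Without T1-1 and T1-4 there was 1 (Dll1), beside 1916 of all genes. The unadjusted p of Notch2 was 0.0531 with no filter on counts, 0.0535 with a mean count of 50 or more and 0.0535 in limma-voom, and between 0.0096 and 0.149 with each library left out, under 0.05 only without T1-3, S1-4 or S3-1. Notch2 and Hey1 kept a negative log2 fold change under all 18 alternatives. Others changed sign. With the sham libraries of prefix S1 alone, Dll3 was at −0.19 and Hes1 at 0.019. With those of prefix S3 alone, Notch3 was at 0.064, Jag1 at 0.25 and Rbpj at 0.10. Dll3 was at −0.053 in limma-voom and Rbpj at 0.0047 with no filter on counts. Without T1-1 and T1-4, an alternative chosen after seeing the data, Dll3 was at −0.51 and Hes5 at −0.16. Leaving out each library in turn gave −0.40 to 0.057 for Notch1, −0.34 to 0.17 for Notch3, −0.22 to 0.064 for Dll1, −0.15 to 0.23 for Dll3, −0.23 to 0.086 for Jag1 and −0.14 to 0.070 for Rbpj. With no change of sign it gave −0.42 (without T1-1) to −0.017 (without S3-4) for Hes1, −0.41 to −0.11 (the same libraries) for Hey1 and 0.03 to 0.31 for Hes5. The cause was not tested.

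Of the 56 other pathway genes, the count called was 1, and 8 had an unadjusted p under 0.05, 6 higher and 2 lower in IUGR (all genes: 612 and 908). It was 0 with a mean count of 50 or more, with either sham prefix alone and without T1-1 and T1-4, and between 0 and 1 with each library left out. The gene called was Aph1c, lower in IUGR, except without S1-6, where it was Dner, higher in IUGR. Of all genes 200 were called, 425 by DESeq2, 328 by limma-voom, 95 with a mean count of 50 or more, 239 without T1-1 and T1-4, 0 and 2 with the sham libraries of prefix S1 or S3 alone (1053 and 1338 at an unadjusted p under 0.05, edgeR), and 1520 at an unadjusted p under 0.05. With each library left out the count was between 41, without S1-4, and 298, without T1-5, and it fell by over 1.5 times without S1-4, S1-6, S3-1, S3-4, T1-1 or T1-4. No paired analysis was possible because the numbers in the library names recur under different prefixes, 4 under both sham prefixes, and no source used here says that they tie an IUGR to a sham embryo. The SE of a log2 fold change was 0.16 to 0.30 for the 10 genes, and how much of it comes from depth was not tested.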
